A study of Mus musculus with 12 samples.

Results

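H3K27me3 is histone H3 trimethylated at lysine 27, and broad islands are the longest stretches of chromatin called as enriched for it. In each of 8 deposited lists of enriched islands, every island of 20 kb or more was kept. That gave 6801 broad islands of 81097 islands in all, and the other 74296 islands were shorter. Broad islands were chosen by their measured length. Lengths, counts at a length and everything measured in the same call are therefore given as a description, with an exception. Their number and share of called length in adult and embryonic lists were compared by an exact test, though length chose the islands. Whether another library covers a broad island did not enter the choice, and the other tests are made on that.

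The libraries came from the small intestine of mixed C57BL/6 CD1 mice. Adult stem cells marked by Lgr5 (ISC) and adult enterocytes (AE) were taken from 2-month-old Lgr5EGFP-Cre-ERT males, labelled P60, and epithelium was taken from embryos of the stages E12.5 and E14.5, for which the labels name no transgene or sex. ISC were sorted by high EGFP, which the Lgr5 locus drives in these mice. AE and embryonic cells were sorted as live, EpCAM-positive, CD31-negative and CD45-negative cells, a gate that takes epithelial cells in general and holds no marker of the enterocyte, so other epithelial cells can be in it. Each population gave 2 ChIP libraries, named as biological duplicates, and 1 input library that served as control for both. No expression was measured, so the cell types could not be checked against their markers.

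H3K27me3 is placed by Polycomb repressive complex 2, whose EED subunit binds the mark and helps the complex to modify neighbouring nucleosomes, so that the mark can spread from a nucleation site over a whole locus. Polycomb repressive complex 1 reads the mark and compacts such domains. Long H3K27me3 domains are known above all from genes of developmental regulators that a lineage keeps silent, with the 4 Hox clusters, whose genes set position along the body axis, as the textbook case. In the intestine, Polycomb repression is known to keep regulators of other lineages silent in stem and progenitor cells.

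Broad islands were a small part of every list by number and a larger part by length. The E12.5 lists held 316 and 300 of them in replicates 1 and 2, the E14.5 lists 580 and 980, the ISC lists 2867 and 313, and the AE lists 748 and 697. They were 5.12% and 2.37% of the islands in E12.5, 7.09% and 9.86% in E14.5, 16.5% and 4.69% in ISC libraries, and 9.09% and 5.88% in AE. ISC replicate 1 stood apart from every other library, including the other ISC library, whose count was close to those of E12.5. ChIP reads inside islands numbered 6627853 in ISC replicate 1 and 1493464 in ISC replicate 2, a count that grows with the called length. Counts in the other 6 libraries lay between 1171968 and 3124099. The deposited fold is scaled by library size. The ratio of ChIP to control reads over it gives ChIP library size against the shared control. In replicates 1 and 2 it was 0.582 and 0.627 in E12.5 and 0.931 and 0.571 in E14.5. It was 0.784 and 0.721 in ISC libraries and 1.46 and 0.867 in AE. The part of depth in the number of broad islands was not tested.

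Broad islands summed to 8.57 and 9.10 Mb in E12.5, 18.6 and 31.8 Mb in E14.5, 96.1 and 9.26 Mb in ISC libraries, and 23.7 and 21.2 Mb in AE. Their share of the called length was 13.7% and 12% in E12.5, 24.5% and 29.2% in E14.5, 39.8% and 15.2% in ISC libraries, and 29.6% and 23.3% in AE. They held 18.3% and 20.3% of the ChIP reads in islands in E12.5, 34.0% and 39.7% in E14.5, 45.8% and 20.8% in ISC libraries, and 34.7% and 26.7% in AE. By length, both E14.5 and both AE lists lay above both E12.5 lists, while 1 ISC list lay above all of these and the other between the E12.5 lists and the rest. In a sorted bulk population, a mark present in fewer cells and a mark at a lower level per cell cannot be told apart.

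Adult lists held 1156 ± 1157 broad islands and embryonic lists 544 ± 318 (SD, n = 4 each), a difference that did not pass an exact two-sided permutation test over 35 splits (p = 0.429). Without ISC replicate 1 the difference was 42 islands in place of 612. The share of called length was 27% ± 10.4 in adult lists and 19.8% ± 8.33 in embryonic lists (SD, n = 4 each), with an exact permutation p of 0.286, and the difference was 2.89 percentage points without ISC replicate 1 in place of 7.16. The smallest p this design allows is 0.0286, and since the splits move single libraries it holds for libraries and not for populations. The labels do not say whether duplicates came from separate animals, so their spread may be partly technical. Within an age, 2 libraries against 2 cannot give a p below 0.333, so stages are described by their values.

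**Figure D1:**
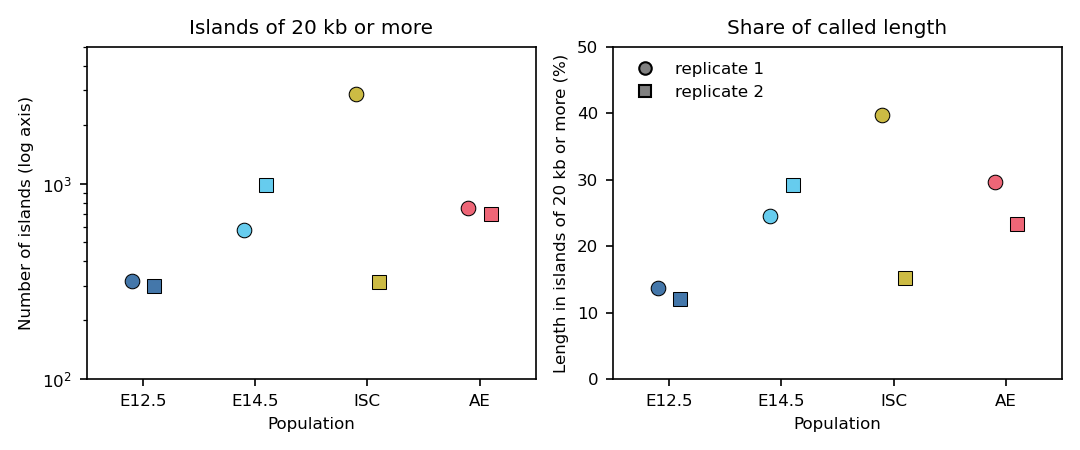
Broad islands per library. Points show, for each of the 8 H3K27me3 lists, the number of islands of 20 kb or more on a log axis and their share of the called length in percent. ISC replicate 1 reaches 2867 islands and 39.8% of length, against 313 islands and 15.2% in ISC replicate 2.

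Lengths ran on without a break across the threshold. The shortest broad islands measured 20 kb and the longest islands outside measured 19.8 kb in every list, 1 window of 200 bp apart. At exactly 20 kb there were between 6 and 59 islands a list, and at 19.8 kb between 5 and 46. The median fold over control of the first set was 1.34 and 2.14 in E12.5, 1.70 and 1.88 in E14.5, 1.45 and 1.57 in ISC libraries, and 1.55 and 1.34 in AE. Just outside, it was 1.31 and 2.01 in E12.5, 2.15 and 1.74 in E14.5, 1.45 and 1.78 in ISC libraries, and 1.51 and 1.42 in AE.

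Most broad islands were not far above 20 kb. Median lengths of broad islands lay between 24.6 kb in E12.5 replicate 1 and 27.4 kb in E14.5 replicate 2 and ISC replicate 1. Islands of 50 kb or more numbered 9 and 26 in E12.5, 53 and 91 in E14.5, 333 and 14 in ISC libraries, and 63 and 44 in AE. Those of 100 kb or more numbered 1 and 2 in E12.5, 6 and 9 in E14.5, 34 and 2 in ISC libraries, and 7 and 2 in AE. The longest island of a list measured 118.8 and 124.2 kb in E12.5, 197.4 and 198 kb in E14.5, 270.2 and 141 kb in ISC libraries, and 162.6 and 124 kb in AE.

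These 8 longest islands fell in only 3 places of the genome. On mm9, the longest islands of E12.5 replicate 1, both E14.5 libraries, ISC replicate 1 and AE replicate 1 all overlap on chromosome 15, the widest being chr15:102717801-102988000 in ISC replicate 1. Those of ISC replicate 2 (chr6:52112601-52253600) and AE replicate 2 (chr6:52124801-52248800) overlap on chromosome 6, and that of E12.5 replicate 2 is chr2:74480801-74605000. No annotation of mm9 was used here. By general knowledge of that assembly, which the deposited lists do not give, these places are the HoxC, HoxA and HoxD clusters.

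The ratio of ChIP to control reads was next set against length. The raw ratio depends on the sizes of both libraries, and in every list it is a fixed multiple of the authors' fold, between 0.571 and 1.46. The fold is therefore used below, within a list only, and it is the authors' own value. Broad islands had median raw ratios of 0.798 and 1.84 in E12.5, 1.94 and 1.29 in E14.5, 1.24 and 1.22 in ISC libraries, and 2.12 and 1.26 in AE. A raw ratio under 1, as in E12.5 replicate 1, stands for a smaller ChIP library and not for depletion, since the same islands have a median fold of 1.37.

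Median folds of broad islands against the shorter islands of the same list were 1.37 against 1.38 and 2.94 against 1.65 in E12.5, 2.09 against 1.54 and 2.26 against 1.63 in E14.5, 1.59 against 1.44 and 1.69 against 1.44 in ISC libraries, and 1.45 against 1.44 and 1.46 against 1.52 in AE. Broad islands had the higher median in 6 of 8 lists, by most in E12.5 replicate 2 and both E14.5 libraries. In both AE libraries and in E12.5 replicate 1 the medians were within 0.1 of each other. Control reads per kb were higher in broad than in shorter islands in 8 of 8 lists, with medians between 19.9 and 23.9 in broad islands and between 16.0 and 21.3 in shorter ones. The part of this difference in the folds was not tested.

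The course over length turned inside every list. Islands under 5 kb had a higher median fold than islands of 5 to 10 kb in 8 of 8 lists, while islands of 30 to 50 kb had a higher median fold than those of 20 to 30 kb in 8 of 8 lists. In E14.5 replicate 2 the medians over the classes under 5, 5 to 10, 10 to 20, 20 to 30, 30 to 50, and 50 kb or more were 1.84, 1.59, 1.61, 2.07, 2.43 and 2.89. In ISC replicate 2 they were 1.57, 1.42, 1.40, 1.64, 1.93 and 1.91. In AE replicate 2 they were 1.61, 1.44, 1.38, 1.42, 1.52 and 1.55, so that in this list every broad class stayed below the shortest islands.

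**Figure D2:**
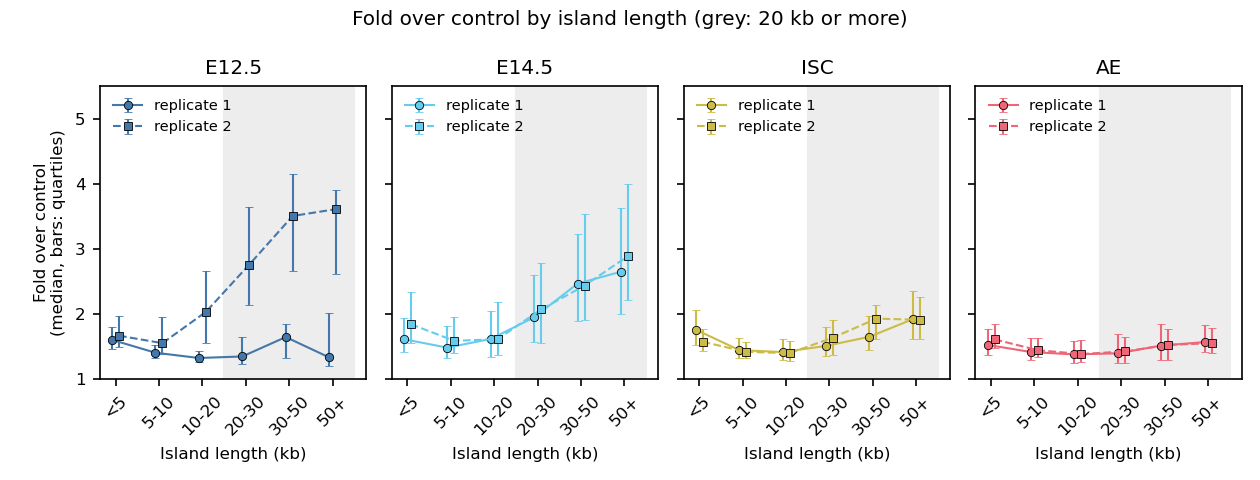
Fold over control by island length. Each line is 1 list and each point the median of the authors' fold in a length class, from under 5 kb to 50 kb or more, with bars for the quartiles and grey for the broad classes. Between 20 to 30 kb and 30 to 50 kb every line goes up, as from 2.07 to 2.43 in E14.5 replicate 2 and from 1.42 to 1.52 in AE replicate 2.

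The class of 50 kb or more was above that of 20 to 30 kb in 7 of 8 lists. The exception was E12.5 replicate 1, with a median of 1.33 at 50 kb or more and 1.35 at 20 to 30 kb. Its longest class held 9 islands, with a median of 48.5 control reads per kb, against 22.5 per kb in its islands of 20 to 30 kb. Spearman's rho of fold with length among broad islands was 0.162 and 0.235 in E12.5, 0.307 and 0.268 in E14.5, 0.294 and 0.281 in ISC libraries, and 0.181 and 0.142 in AE. Over islands of all lengths it ran from -0.416 in AE replicate 2 to 0.0487 in E14.5 replicate 1. These correlations describe islands of 1 library and 1 control and carry no p.

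The lowest fold among islands of 50 kb or more was below that among islands under 5 kb in 7 of 8 lists. It lay between 1.04 and 1.196 at 50 kb or more and between 1.14 and 1.25 under 5 kb, and the exception was AE replicate 2, with 1.165 and 1.160. Broad islands held a median of 487 to 1370.5 ChIP reads and shorter ones 93 to 214, so a fold is better determined in a broad island. A fold of 2 or more was reached by 10.1% and 84.7% of broad islands in E12.5, 55.0% and 60.6% in E14.5, 21.6% and 26.5% in ISC libraries, and 12.6% and 10.5% in AE. Among the shorter islands the shares were 2.37% and 26.0% in E12.5, 20.7% and 28.3% in E14.5, 8.95% and 4.34% in ISC libraries, and 9.71% and 11.5% in AE. Within a list, the share was larger among broad than among shorter islands in all lists but AE replicate 2.

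Broad islands of 1 library were then looked for in each other list. An island was called whole where 1 island of the other list covers 90% or more of it, in pieces where it is touched by the other list but not whole, and untouched where no 200 bp window is shared. Over the 8 ordered pairs of libraries of the same population, 33.5% ± 27.01 of broad islands were whole, 56.9% ± 23.1 in pieces and 9.60% ± 12.49 untouched (SD over pairs). Over the 48 ordered pairs of different populations, 27.6% ± 22.7 were whole, 54.8% ± 17.4 in pieces and 17.5% ± 12.4 untouched. Pieces were the most common state in both kinds of pair.

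The difference in untouched islands between same-population and different-population pairs was -7.94 percentage points, with an exact two-sided permutation p of 0.0286 over all 105 ways of pairing the libraries. The difference in whole islands was 5.84 percentage points and did not pass the same exact test (p = 0.105). Without ISC replicate 1 the 2 differences were -9.20 (exact permutation p = 0.0286) and 3.93 (exact permutation p = 0.419). The call on untouched islands did not hold in 5 of 8 cases with 1 library left out. It was lost without E12.5 replicate 1 (-4.65, exact permutation p = 0.333), E14.5 replicate 1 (-5.99, exact p = 0.229), E14.5 replicate 2 (-5.64, exact p = 0.276), AE replicate 1 (-7.65, exact p = 0.0952) or AE replicate 2 (-8.72, exact p = 0.0667). It was also lost with broad from 30 kb (-6.53, exact p = 0.0571) and at a fold of 1.5 or more (-6.89, exact p = 0.105). Libraries of 1 population share their control, and shared control and shared population cannot be told apart in this comparison.

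Broad islands were found again far more often than shorter ones. Shorter islands were untouched at 48.5% in same-population pairs and 60.8% in different-population pairs, and the untouched share was lower for broad islands in 56 of 56 ordered pairs. They were whole at 24.7% in same-population pairs and 18.2% in different-population pairs. Same-population pairs thus had more whole and fewer untouched islands among shorter islands too, so this is not particular to broad islands. A long island meets another island more easily for its length alone, so covered length was compared too. Islands of the other list covered 72.5% ± 19.5 of the length of broad islands in same-population pairs, against 43.9% ± 22.1 of the length of shorter islands. In different-population pairs they covered 62.8% ± 18.4 of the broad length, against 33.5% ± 14.8 of the shorter length. The covered share was larger for broad islands in 56 of 56 ordered pairs, while the share found whole was larger in 39 of 56.

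The state depended on which list was asked. Of the 313 broad islands of ISC replicate 2, 266 (85.0%) were whole in ISC replicate 1, where 64.3% of its islands of any length were whole. In the other direction, 33 of 2867 broad islands of ISC replicate 1 (1.15%) were whole in ISC replicate 2, against 2.57% of its islands of any length, and 1023 (35.7%) were untouched, against 71.9%. Of the other broad islands of ISC replicate 2, 39 were in pieces in ISC replicate 1 and 8 untouched. Between the E14.5 libraries, 362 of 580 broad islands of replicate 1 (62.4%, against 46.8% of islands of any length) were whole in replicate 2 and 2 were untouched (0.345%, against 21.9%). In return, 208 of 980 of replicate 2 were whole in replicate 1 (21.2%, against 17.2%).

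In E12.5, 93 of 316 broad islands of replicate 1 were whole in replicate 2 (29.4%, against 14.9% of islands of any length) and 29 untouched (9.18%, against 51.2%). Of the 300 in replicate 2, 58 were whole in replicate 1 (19.3%, against 11.2%) and 11 untouched (3.67%, against 74.7%). More of them were whole in a library of the later stage, with a higher background: 251 of the 300 were whole in E14.5 replicate 2 (83.7%, against 39.2%), and 1 was untouched (0.333%, against 45.8%). In AE, 147 of 748 broad islands of replicate 1 were whole in replicate 2 (19.7%, against 17.3%), a share near its background, and 8 untouched (1.07%, against 39.4%). Of the 697 in AE replicate 2, 207 were whole in replicate 1 (29.7%, against 27.2%, again near it) and 146 untouched (20.9%, against 51.8%).

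Between an adult and an embryonic list, 20.9% ± 11.9 of broad islands were untouched over 32 ordered pairs, against 10.7% ± 10.7 over the 16 ordered pairs of different populations of 1 age. Of the shorter islands, 64.0% and 54.4% were untouched in the same 2 sets of pairs, a difference in the same direction. These pairs share libraries, and neither difference was tested. Between ISC and AE, the share differed with the covering library. Of the broad AE islands, 504 of 748 in replicate 1 (67.4%, against 53.5% of islands of any length) and 430 of 697 in replicate 2 (61.7%, against 55.1%) were whole in ISC replicate 1. In ISC replicate 2, 74 (9.89%, against 12.3%) and 92 (13.2%, against 13.5%) were whole, shares below the background. In the other direction, 186 of 313 broad islands of ISC replicate 2 (59.4%, against 31.3%) were whole in AE replicate 1 and 105 (33.5%, against 25.4%) in AE replicate 2. Broad AE islands untouched by E12.5 replicate 1 numbered 257 (34.4%, against 77.8% of islands of any length) and 235 (33.7%, against 79.1%). Those untouched by E12.5 replicate 2 numbered 167 (22.3%, against 63.3%) and 127 (18.2%, against 63.8%).

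**Figure D3:**
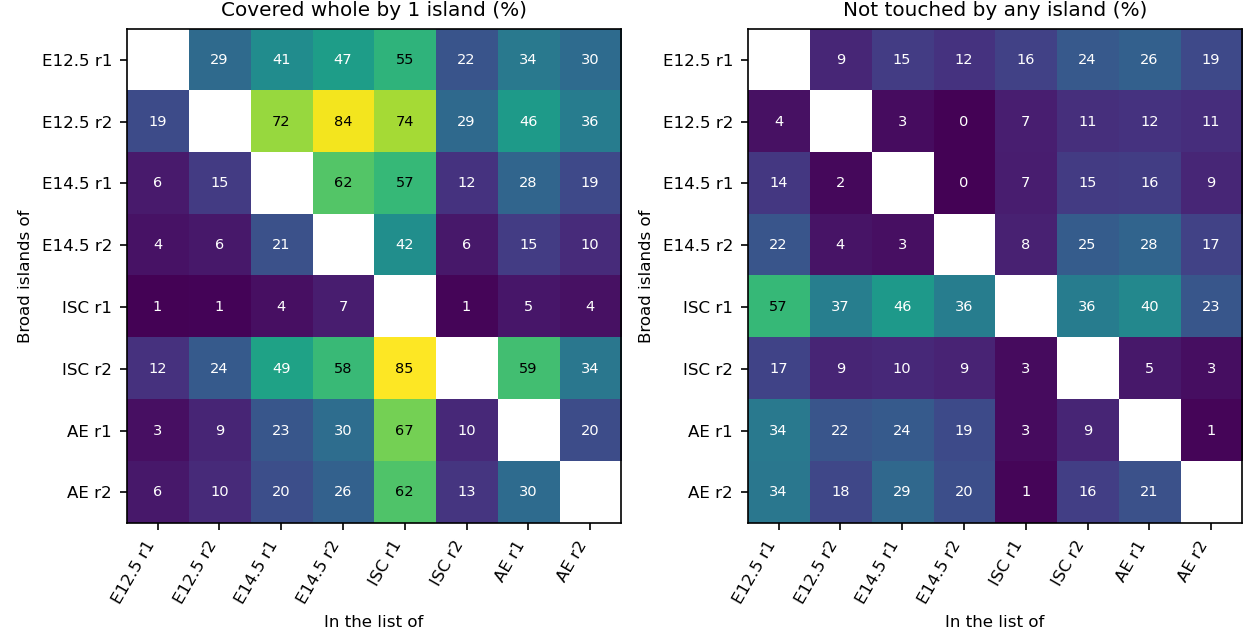
Broad islands of each list in each other list. For every ordered pair of libraries, the panels give the percent of broad islands of the row's library that the column's library covers whole and the percent that it leaves untouched. ISC replicate 1 has few whole islands as a row, such as 1.15% in ISC replicate 2, and many as a column, such as 85.0% of those of ISC replicate 2.

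An island found in pieces was usually touched by few islands, and often by 1 that covered only a part of it. The share touched by 2 or more was smallest, 21.9%, for E12.5 replicate 1 in E14.5 replicate 1. It was largest, 69.2%, for ISC replicate 2 in AE replicate 2. The median number of islands over such a broad island was 1 or 2 in each of the 56 ordered pairs, and the median share of its length they covered lay between 32.2% and 88.9%. The lowest value was that of ISC replicate 1 in E12.5 replicate 2 and the highest that of ISC replicate 2 in ISC replicate 1. The most broken case was a broad island of ISC replicate 1 over which AE replicate 2 had 12 islands.

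Where 2 lists had broad islands that matched one to one, their borders rarely coincided. The median distance between matching borders was 3.93 ± 2.03 kb over the 4 same-population pairs and 4.58 ± 1.45 kb over the 24 different-population pairs (SD over pairs). The closest replicates were those of E14.5, with 434 matching islands and a median distance of 2.2 kb, and the farthest those of ISC, with 248 matching islands and 6.8 kb. The E12.5 replicates had 141 matching islands at 2.9 kb and the AE replicates 303 at 3.8 kb. Borders within 1 kb of each other were 25.7% ± 7.17 of all borders in same-population pairs and 21.9% ± 3.87 in different-population pairs. The ranges overlapped, from 2.2 to 6.8 kb and from 2.8 to 8.3 kb.

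Taking all other lists at once, most broad islands of 7 lists were touched by every one of them. This held for 216 and 248 broad islands in E12.5 (68.4% and 82.7%, against 22.4% and 10.7% of islands of any length), 429 and 571 in E14.5 (74.0% and 58.3%, against 15.2% and 12.6%), and 441 and 373 in AE (59.0% and 53.5%, against 15.5% and 11.8%). In ISC it held for 819 islands of replicate 1 (28.6%, against 7.18%) and 238 of replicate 2 (76.0%, against 21%). Broad islands that no other list touched were 187 in ISC replicate 1 and 18 in E12.5 replicate 1, and 0 or 1 in each of the other 6 lists. They were 6.52% and 5.70% of the broad islands of those 2 lists, while 34.5% and 33.8% of their shorter islands, and 9.61% to 26.1% of those of the other 6 lists, were untouched by all. Those whole in no other list were 85.9% in ISC replicate 1 and between 5.33% and 44.7% elsewhere. The same share was not computed for shorter islands, so these values are a description.

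Untouched broad islands had a lower median fold than those touched by all other lists. It was 1.30 in ISC replicate 1, against 2.10. Islands touched by at most 3 lists, the untouched ones included, had 1.39 there, and those touched by 4 to 6 had 1.62. In E12.5 replicate 1 the medians were 1.23 and 1.59, with 1.23 and 1.22 in the same 2 classes. There the untouched islands did not stand below islands touched by 4 to 6 lists. The longest untouched islands of the adult lists were all in ISC replicate 1, led by chr2:165505201-165561400 of 56.2 kb with a fold of 1.26 and chr9:40984401-41037400 of 53 kb with a fold of 1.40. The next 3, chr4:141945001-141987400, chr2:27764601-27805400 and chr4:106763001-106803800, measured 42.4, 40.8 and 40.8 kb with folds of 1.26, 1.21 and 1.22. Those of the embryonic lists were all in E12.5 replicate 1, led by chr11:4867001-4895800 of 28.8 kb with a fold of 1.26. The next 4 measured between 26.2 and 27.2 kb, on chromosomes 8, 4, 14 and 7, with folds from 1.15 to 1.26.

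To see where populations share a domain, broad islands of all lists were merged into loci wherever they overlap. That gave 3247 broad loci. A single list was broad at 2051 of them, and 1661 of these belonged to ISC replicate 1, as 60.8% of its own loci. Broad islands stood in 2 lists at 489 loci, in 3 at 269, in 4 at 136, in 5 at 90, in 6 at 73, in 7 at 58 and in all 8 at 81. The numbers go down with each further list and then up at 8. The 81 loci were 2.49% of the broad loci, while 4.09% of the 29540 loci built from islands of any length held an island of all 8 lists.

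Fold went with sharing inside each list. For E14.5 replicate 2, the median fold of broad islands was 1.78 at loci broad in 1 list, 2.08 at 2 to 4, 2.66 at 5 to 7 and 3.95 at 8. For ISC replicate 1 it was 1.45, 1.77, 2.21 and 2.92 in the same classes. In AE replicate 1 it was 1.64, 1.36, 1.45 and 1.73, the one list where loci broad in a single list were above those in 2 to 4, at 15.9 against 19.5 control reads per kb. Broad islands at shared loci were also longer, with medians of 24.8 kb at 1 list and 56.2 kb at 8 in ISC replicate 1. Length enters the definition of such a locus, so that difference is a description.

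**Figure D4:**
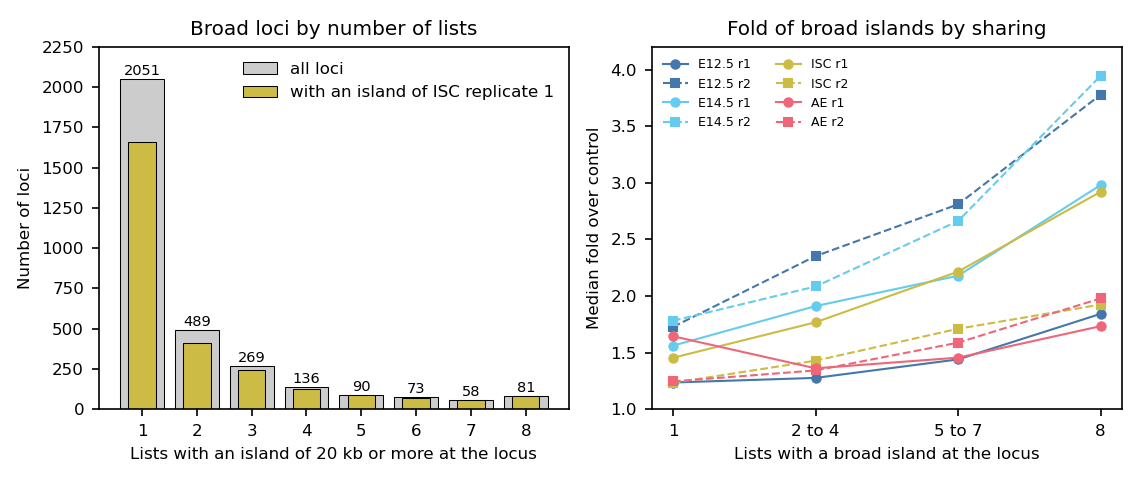
Sharing of broad loci. The panels give the number of loci by how many of the 8 lists are broad there, with those that hold an island of ISC replicate 1 as inner bars, and the median authors' fold of each list's broad islands by the same classes. Most loci, 2051, belong to 1 list, 81 belong to all 8, and the folds are highest at 8 lists in every list.

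Loci broad in both lists of 1 population and in no other list were few and did not stand above their background. They numbered 2 for E12.5 (0.0616% of broad loci, against 0.819% of loci of any length with the same pattern), 43 for E14.5 (1.32%, against 1.31%), 17 for ISC (0.524%, against 1.32%) and 6 for AE (0.185%, against 0.789%). E14.5, ISC and AE, without E12.5, met at 17 loci (0.524%, against 0.487%), a share near its background as well. All populations but AE met at 3 (0.0924%, against 0.193%). All but ISC met at 0 (against 0.0372%) and all but E14.5 at 0 (against 0.0745%). Such counts move with the number of broad islands in a list, and the counts that need E12.5 or ISC rest on lists of 316, 300 and 313.

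The 81 loci broad in all 8 lists spanned a median of 70 kb, from 33.8 to 437 kb. The stretch covered in all 8 lists was much shorter, with a median of 22.4 kb and a range of 14.2 to 68 kb, and reached 20 kb at 56 of the 81. At 41 loci each list had a single broad island. The loci lay on 18 chromosomes, with 10 on chromosome 2, 9 on chromosome 5, 8 on chromosome 1 and 7 on chromosome 19, and 0 on X, Y and 12. In each list, the broad islands at such a locus summed to a median of 27.8 and 33.4 kb in E12.5, 44.4 and 54.4 kb in E14.5, 62.4 and 33.8 kb in ISC libraries, and 45 and 37.8 kb in AE.

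The longest of these common stretches were Hox clusters, again by general knowledge of mm9. The first was chr15:102775601-102843600, 68 kb in the HoxC cluster. The island over it measured 118.8 and 120 kb in E12.5, 197.4 and 198 kb in E14.5, 270.2 and 127.4 kb in ISC libraries, and 162.6 and 76.6 kb in AE. Its fold was 2.01 and 4.67 in E12.5, 3.85 and 5.37 in E14.5, 4.03 and 2.32 in ISC libraries, and 2.36 and 2.43 in AE. By construction, 1 island of each list covers a common stretch, and beyond it the lists differ. The island's length differed by 1.2 kb between the E12.5 libraries, 0.6 kb between the E14.5 libraries, 142.8 kb between the ISC libraries and 86 kb between the AE libraries. Around it, the locus held 3 islands in ISC replicate 1 and up to 23 in AE replicate 2.

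The second, chr11:96111201-96167800, lies in the HoxB cluster and measured 56.6 kb. Its islands were 56.6 and 70 kb long in E12.5, 101.4 and 108.8 kb in E14.5, 243.6 and 83 kb in ISC libraries, and 145.2 and 65.4 kb in AE. The third, chr6:52154801-52204800, lies in the HoxA cluster and measured 50 kb. Its islands were 50 and 55.4 kb long in E12.5, 80.8 and 91.8 kb in E14.5, 188.4 and 141 kb in ISC libraries, and 149.4 and 124 kb in AE. At HoxA all 4 adult islands were longer than all 4 embryonic ones, while at HoxB the AE replicate 2 island was shorter than the E12.5 replicate 2 island. These lengths were among those that chose the loci and carry no test.

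The fourth Hox cluster, HoxD, was singled out after its values were seen and ranks 13th by common stretch, with 31 kb at chr2:74492001-74523000. Its islands measured 31 and 124.2 kb in E12.5, 144.6 and 131.4 kb in E14.5, 176.6 and 92.4 kb in ISC libraries, and 132.8 and 31.8 kb in AE. Over the whole locus there were 5 and 1 islands in E12.5, 1 and 3 in E14.5, 1 and 3 in ISC libraries, and 3 and 6 in AE, so 1 replicate of each population had the more broken domain. Folds over the stretch were 2.06 and 4.11 in E12.5, 3.77 and 5.77 in E14.5, 4.02 and 2.33 in ISC libraries, and 2.23 and 2.55 in AE.

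Ranks 4 to 8 were chr4:115594001-115639800 (45.8 kb), chr2:105498601-105534200 (35.6 kb), chr3:99036201-99071000 (34.8 kb), chr1:78184201-78218200 (34 kb) and chr6:83641401-83675200 (33.8 kb). The domain on chromosome 2 held 1 broad island in each list. It measured 37.4 and 45.8 kb in E12.5, 49.6 and 50 kb in E14.5, 48.8 and 45 kb in ISC libraries, and 47.6 and 37 kb in AE. Its folds were 2.10 and 4.65 in E12.5, 4.32 and 6.06 in E14.5, 4.06 and 2.14 in ISC libraries, and 2.04 and 2.32 in AE. Over the first 8 stretches, the island's fold was above the median fold of the broad islands of its own list in 64 of 64 cases. These stretches were chosen among loci broad in all 8 lists, where median folds were highest in every list, so the count is a description. Control reads there were in the usual range, since over the first 13 stretches they lay between 16.1 and 27.4 per kb.

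Few domains were broad in 1 age only, and their number changed when single libraries were left out. All 4 adult lists and no embryonic list were broad at 15 loci (0.462% of broad loci, against 1.27% of loci of any length with islands in the same lists only). All 4 embryonic lists and no adult list were broad at 4 (0.123%, against 0.498%). Neither share exceeded its background. With a library left out, the condition on its list fell away as well, which by itself can raise a count. The adult-only count was 85 without ISC replicate 2, 29 without AE replicate 2, 25 without E14.5 replicate 2 and 23 without AE replicate 1, and 15 to 17 without any other library. The embryonic-only count was 22 without E12.5 replicate 1, 11 without ISC replicate 1 and 7 without E14.5 replicate 1, and 4 to 6 without any other.

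The adult domain with the longest common stretch was chr5:125772201-125814800, 42.6 kb. ISC islands of 99.8 and 70 kb and AE islands of 100.8 and 69 kb ran over it, with folds of 2.65, 1.61, 1.56 and 1.82. The E14.5 lists had no island there, and the E12.5 lists covered 18.8% and 16.9% of it. At chr7:52918001-52949600 (31.6 kb), ISC islands measured 119 and 41.2 kb and AE islands 102.6 and 41.4 kb, and 0 of 4 embryonic lists had an island on the stretch. The same held at chr15:100604001-100632800 (28.8 kb) and chr9:42739001-42766000 (27 kb). At the fifth, chr11:95845401-95871000 (25.6 kb), ISC folds were 3.55 and 2.14 and AE folds 1.92 and 2.04, and E12.5 replicate 1 alone among the embryonic lists had an island, over 20.3% of it. A stretch with no island can still carry the mark below the level that the caller needs.

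Of the 4 embryonic domains, the first was chr8:87284201-87315600, 31.4 kb. Its adult islands measured 9.8 and 5.2 kb in ISC and 7 and 6.4 kb in AE and covered 31.2%, 16.6%, 22.3% and 20.4% of the stretch. Its embryonic islands measured 31.4 and 57.2 kb in E12.5 and 58 and 68.8 kb in E14.5. The adult lists thus kept a short island inside the embryonic domain. The third, chr1:19199001-19219600 (20.6 kb), had the same form, with adult islands of 13 and 9.8 kb in ISC and 9.4 and 7 kb in AE, against 20.6 and 38.2 kb in E12.5 and 41.2 and 45.8 kb in E14.5. Adult folds there were 3.56 and 1.93 in ISC and 2.14 and 2.09 in AE, all above the median of the list's broad islands, so the island was short but not weak. At the first domain, adult folds were 1.76 and 1.43 in ISC and 1.21 and 1.71 in AE. These were above that median in ISC replicate 1 and AE replicate 2 and below it in ISC replicate 2 and AE replicate 1. Only the second, chr8:112576001-112599400 (23.4 kb), had no adult island. At the fourth, chr19:53586601-53597200, the common stretch was 10.6 kb and the E12.5 islands over it measured 12.6 and 11.6 kb, so that the broad islands of E12.5 lie beside the common stretch and not over it.

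**Figure D5:**
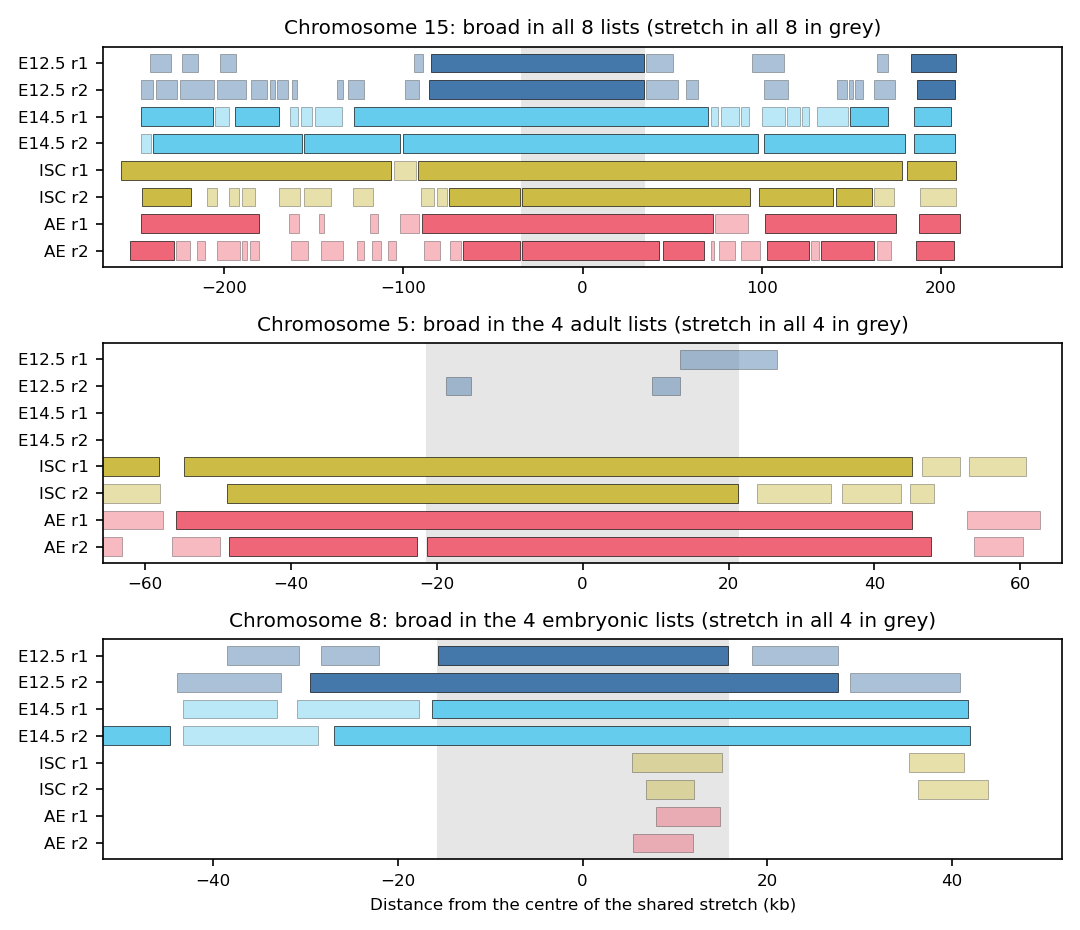
Islands at 3 named loci, 1 row per library. The x axis is the distance in kb from the centre of the common stretch, broad islands are drawn in full colour and shorter islands pale. On chromosome 15 the locus around the 68 kb stretch holds between 3 islands in ISC replicate 1 and 23 in AE replicate 2, on chromosome 5 the adult islands cover 42.6 kb that embryonic lists leave bare or nearly so, and on chromosome 8 short adult islands of 5.2 to 9.8 kb lie inside the embryonic domain.

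The 3 leading loci that were broad in every population but E12.5 were chr11:96864001-96886600, chr13:83851401-83873800 and chr1:138258201-138279200. E12.5 islands were present at all of them and shorter, with 15.8 and 10.2 kb on chromosome 11, 16.6 and 18.6 kb on chromosome 13, and 12.6 and 8.6 kb on chromosome 1. On chromosome 13 they covered 92.0% of the stretch in both E12.5 lists with folds of 2.07 and 4.81, against list medians of 1.37 and 2.94 for broad islands. That domain is outside the E12.5 broad islands by its length and not by its fold.

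The 3 loci broad in every population but AE differed among themselves. The longest, chr11:3025401-3100200 of 74.8 kb, had folds of 1.33 and 1.35 in E12.5, 1.04 and 1.24 in E14.5, and 1.07 and 1.07 in ISC. Control reads there lay between 422 and 496 per kb, against medians of 21.8 to 23.9 per kb in the broad islands of the same lists. At chr19:37760001-37779600, AE islands of 18.4 and 16.4 kb covered 79.6% and 92.9% of the stretch, just short of the threshold. At chr15:78030601-78037800 the common stretch was 7.2 kb, and AE replicate 2 had an island of 8 kb over it.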

How the data were processed

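H3K27me3 chromatin was profiled in 8 ChIP libraries, 2 for each of 4 populations, from fragments of about 350 to 700 bp and a Millipore antibody. The submitters' processing notes name bcl2fastq 1.8.4, Bowtie 1.1.2, SAMtools 1.2, SICER 1.1 and build mm9. The caller's window, gap and FDR settings are not given in the sources used here. SICER joins neighbouring enriched windows into islands. The deposited lists carry no header, and the order of values gives position, ChIP count, control count, p-value, fold and FDR. Read counts per island are whole numbers as deposited. The deposited fold is a ratio, ChIP over control reads scaled by library size. The authors' p-value and FDR enter only as filters, and no deposited FDR exceeds 0.01. Islands lie on a 200 bp grid, were called per library, and are at least 1.2 kb apart.

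From these lists, coordinates (1-based) were compared with Python 3.11.15, numpy 2.4.6, pandas 2.3.3 and SciPy 1.17.1, after the code was tested on simulated data. The broad islands, lists and tests were chosen with earlier results of these data known. Same-population pairs were tested against different-population pairs by exact permutation over 105 pairings, and adult against embryonic libraries over 35 splits. Regions named are the 8 loci broad in all 8 lists with the longest stretch common to them, the 5 adult-only and up to 5 embryonic-only loci, 3 for each population left out, the longest island of each list, and the 5 longest untouched broad islands of each age. Alternatives were other lengths, FDR and fold filters, equal covered length, joining islands 2 kb or less apart, autosomes only, leaving out islands with high control, other definitions of whole, each library left out and a replicate block. Library totals are unknown. Genes and sequences were not analysed, since the gene tables at hand belong to another assembly.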

Additional observations from a re-analysis of the deposited data

Results flagged for a closer look

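Among 4 adult or 4 embryonic lists, 20 sets of values were searched for a library far from the other 3, and 4 were found; chance alone flags about 1 in 20 such sets. ISC replicate 1 had 2867 broad islands, and the nearest adult list had 748. It also had the largest adult share of broad islands that no other list touches, 6.52%, against 0.143% in the nearest adult list. In E12.5 replicate 1, 5.70% of broad islands were touched by no other list, against 0.102% in the nearest embryonic list. Broad islands with a fold under 1.2 made up 16.5% of those of E12.5 replicate 1, against 3.10% in the nearest embryonic list, at medians of 23.9 and 22.3 control reads per kb below and above that fold. ChIP reads inside islands numbered 6627853 in ISC replicate 1 and 1171968 in E12.5 replicate 1, the highest and the lowest of the 8 libraries. Such counts grow with the called length. ChIP library size against the shared control was 0.784 and 0.721 in ISC replicates 1 and 2, and 0.582 and 0.627 in those of E12.5. The part of depth in the flagged values was not tested.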

How the results depend on the processing

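The adult minus embryonic differences in number and in share of length kept their direction and stayed short of the threshold under all 17 alternatives, and leaving out 1 library gave 42 to 893 islands and 2.89 to 11.1 percentage points. With the replicate block, labels were permuted within a replicate number, and the exact p was 0.444 for 612 islands and 0.333 for 7.16 percentage points. In the share of broad islands per chromosome, deviations of same-numbered libraries from their population mean correlated with r from -0.232 to 0.361. With 2 libraries per population this cannot exclude that the numbers pair samples. The same-population excess of whole islands passed the exact test with broad from 15 kb (6.07, p = 0.0381), with islands 2 kb apart joined (7.34, p = 0.00952), with whole from 80% (7.48, p = 0.0190) and with 90% covered by all islands together (7.51, p = 0.0190). Leaving out 1 library gave 2.53 to 10.9, and it passed without E12.5 replicate 2 or AE replicate 1. The deficit of untouched islands missed the threshold from 30 kb (-6.53, exact p = 0.0571) and at a fold of 1.5 or more (-6.89, exact p = 0.105). Leaving out 1 library gave -12.7 to -4.65. Loci broad in all 8 lists numbered 162 from 15 kb, 19 from 30 kb and 132 after joining. With 1 library left out, the condition on its list fell away, and 81 to 103 loci were broad in all remaining lists. Adult-only loci numbered 46 from 15 kb, 4 from 30 kb, 6 at a fold of 1.5 or more and 36 after joining, and 15 to 85 with 1 library left out, the highest without ISC replicate 2. Embryonic-only loci numbered 14, 1, 2 and 17 under the same settings, 7 at equal covered length, and 4 to 22 with 1 library left out, the highest without E12.5 replicate 1. The median fold of broad islands exceeded that of islands of 5 to 10 kb by 0.388 ± 0.485 (SD, 8 lists), reversed to -0.0267 where the FDR was 1e-10 or less, and was 0.245 to 0.448 with 1 library left out. The causes were not tested. An island missing from a shallow list can fall short of the caller's threshold only.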

Other observations

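Few islands of any length lay on the X chromosome. Broad ones numbered 2 and 3 in E12.5, 7 and 13 in E14.5, 1 and 2 in ISC libraries, and 0 and 1 in AE. In E14.5 the X held 1.21% and 1.33% of the broad islands, against 4.17% and 3.91% of the shorter ones. The shares of broad against shorter islands were 0.633% against 0.564% and 1.00% against 1.72% in E12.5 libraries, 0.0349% against 0.309% and 0.639% against 0.378% in ISC libraries, and 0% against 0.601% and 0.143% against 0.520% in AE libraries. The share was larger for broad islands in 2 of 8 lists. On the Y chromosome, 7 lists had exactly 1 broad island each. ISC replicate 1 had 0 broad islands and 0 islands of any length there, although the labels name adult males, while ISC replicate 2 had 15 islands of any length on the Y.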
